A study of Homo sapiens with 6 samples.

Results

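The genes described here are 46 genes of NF-kB signalling: the 5 subunits of the transcription factor, 5 IkB-type regulators, TNFAIP3 with its partners TNIP1 and TNIP2, 6 kinases, 5 TRAF and cIAP proteins, 8 chemokines, 11 cytokines and 3 other target genes. They were selected by a list of gene names, and all 46 have a row among the 50868 genes of the count files. The cells were DU145, a human prostate cancer line that grows without androgen, and their RNA was sequenced. The siRCC2 group had 3 libraries from cells given an siRNA against RCC2, a chromosome- and GTPase-binding protein of the RCC1 repeat family. The siCtrl group had 3 libraries from cells given a control siRNA, and the labels give the RCC2 genotype of its cells as wild type. No time after transfection, no stimulus and no siRNA sequence is given in the sources used here, so the values are levels without any stated NF-kB agonist. Whether the libraries are separate cultures is not stated in the labels. The p-values therefore set a difference only against the spread among these 6 libraries, and that spread may be technical.

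NF-kB is a family of dimers that is held in the cytoplasm by IkB proteins. In the classical arm, receptors for TNF, IL-1 and bacterial products lead through TRAF and cIAP ubiquitin ligases to the IKK complex (IKBKB, CHUK and the scaffold IKBKG), which marks IkB for destruction and frees RELA and NFKB1 dimers. In the alternative arm, the kinase MAP3K14 (NIK) activates CHUK, which has the NFKB2 precursor cut so that RELB and NFKB2 dimers enter the nucleus, while TRAF2, TRAF3 and the cIAPs keep MAP3K14 protein low. Among the genes switched on are inhibitors of the pathway itself, such as NFKBIA and TNFAIP3, and cytokines, of which IL6 and CXCL8 are well studied in prostate cancer cells.

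In siRCC2 libraries most of these genes were lower, with a set of exceptions. Of 46 genes, 41 passed the filter on low counts, 24 of them were lower and 8 higher in siRCC2 at an adjusted p under 0.05, and 9 did not pass. The genes that fell included the subunits NFKB2 and RELB, the inhibitors NFKBIE and NFKBIA, the chemokines CXCL1, CXCL2, CXCL3 and CXCL8, and the cytokines LIF and IL32. The genes that rose were NFKBIB, TNIP1, TNIP2, MAP3K14, TRAF2, IL6, CSF1 and ICAM1. Across all 16536 tested genes, 41.8% were called in either direction, 21.1% lower and 20.7% higher, against 78% of the 41 genes in either direction, 58.5% lower and 19.5% higher. The share of NF-kB genes called lower was thus above that of all genes, and the share called higher was near it. Among the genes called lower, LTB and CSF2 reached the filter through their siCtrl counts. The genes were chosen with earlier results of these data known, so the comparison of shares is a description and no test. The median log2 fold change (siRCC2 over siCtrl) was -0.60 over the 41 genes, with quartiles of -1.14 and 0.19, and -0.02 over all tested genes, with quartiles of -0.43 and 0.37.

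**Figure D1:**
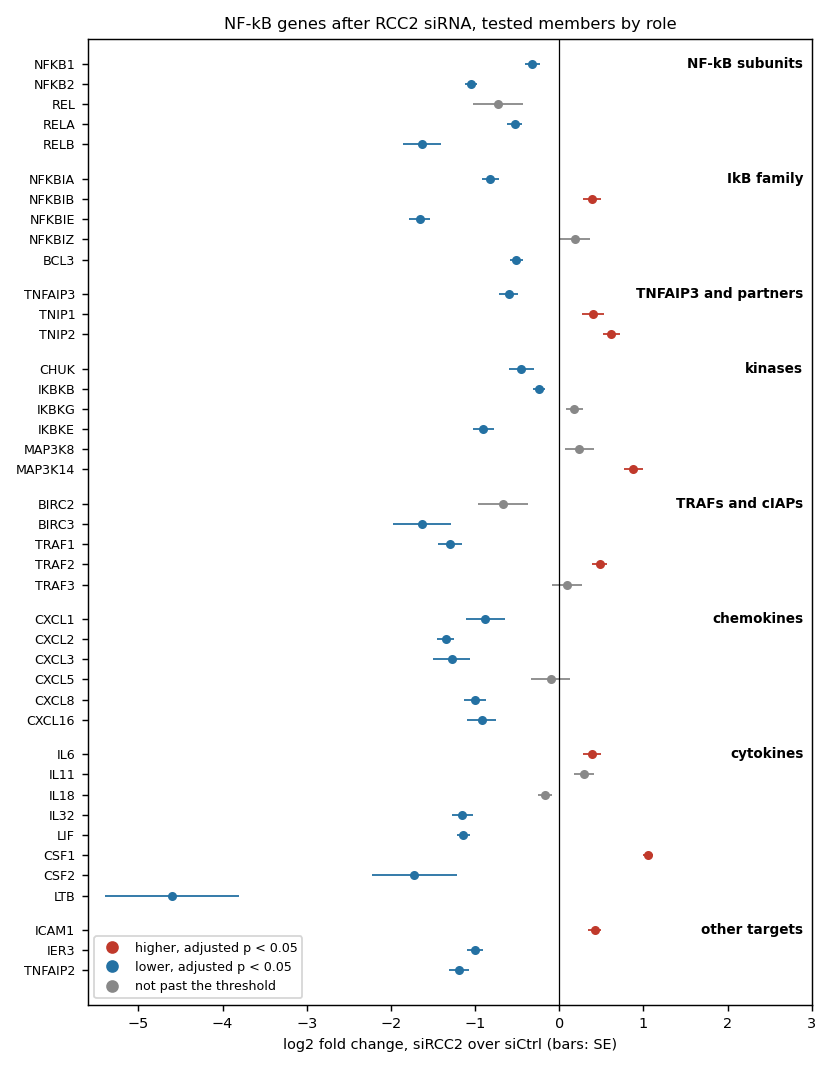
Log2 fold change, siRCC2 over siCtrl, of the 41 tested genes, grouped by role, with the SE as a horizontal line. Points left of 0 are lower in siRCC2. The 24 genes called lower and the 8 called higher are coloured, and LTB lies far to the left with a wide SE.

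The DNA letters that NF-kB binds are shown first, because genes that held the same match, with other letters around it, did not all move alike. Promoters from 250 bases before to 50 bases after a gene's start were taken from RefSeq (GRCh38.p14), and 37 of the 46 genes had at least 1 entry. They were searched on both strands for the kappaB consensus GGGRNNYYCC (R: A or G, Y: C or T, N: any letter), and overlapping matches were merged. A stretch that differs from this pattern in any letter was not counted. A match was found for 20 of these 37 genes, namely for 11 of 18 genes that were lower, 3 of 7 that were higher, 5 of 8 that did not pass and 1 of 4 that were not tested. Counted by promoter, since some genes have several starts, 25 of 55 (45.455%) held a match, against 13.563% of 16206 promoters of tested genes. The 55 include promoters of NF-kB genes that were not tested, and without these 24 of 50 held a match. By direction, again counted by promoter, 13 of 26 held a match for NF-kB genes that were lower and 3 of 9 for those that were higher. Among all tested genes, the share of promoters was 14.544% for genes called lower and 12.89% for genes called higher. The windows below run 5′ to 3′ on the strand of the gene, lie before the start, and carry the match in capitals. The GRO chemokine genes CXCL1, CXCL2 and CXCL3, and CXCL5 between them on chromosome 4, held the same 11 letters, though the first 3 genes fell and CXCL5 did not pass the test:
CXCL1 (chr4:73869305-73869333, plus strand, fell): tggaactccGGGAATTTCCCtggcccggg
CXCL2 (chr4:74099254-74099282, minus strand, fell): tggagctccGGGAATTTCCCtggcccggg
CXCL3 (chr4:74038749-74038777, minus strand, fell): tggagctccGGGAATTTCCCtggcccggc
CXCL5 (chr4:73998749-73998777, minus strand, not past the threshold): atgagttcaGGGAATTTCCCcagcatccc
The match began 79, 78, 79 and 91 bases before the annotated starts of CXCL1, CXCL2, CXCL3 and CXCL5.

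Genes of the pathway itself held matches as well. The following are shown because each of these genes fell:
NFKB1 (chr4:102501300-102501329, plus strand, fell): cgacgtcagtGGGAATTTCCagccaggaag
NFKB2 (chr10:102394462-102394490, plus strand, fell): aaacgtcatGGGAATTCCCCcctccgggg
NFKB2, another start (chr10:102395674-102395703, plus strand, fell): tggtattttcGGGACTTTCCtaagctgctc
NFKBIA (chr14:35404811-35404840, minus strand, fell): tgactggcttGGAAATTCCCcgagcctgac
TNFAIP3 (chr6:137867182-137867211, plus strand, fell): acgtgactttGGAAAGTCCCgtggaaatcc
BIRC3 (chr11:102317275-102317304, plus strand, fell): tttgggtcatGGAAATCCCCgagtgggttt
IL32 (chr16:3065295-3065323, plus strand, fell): ctgtactcaGGGAGTTTCCCcagccagct
LTB (chr6:31582492-31582521, minus strand, fell): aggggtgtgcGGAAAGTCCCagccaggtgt
The next windows are shown because these 3 genes rose in siRCC2, and NFKBIB held the same 11 letters as the GRO chemokine genes:
NFKBIB (chr19:38899932-38899960, plus strand, rose): ggcgtggtgGGGAATTTCCCgcagggcgg
TNIP1 (chr5:151081057-151081086, minus strand, rose): ccagtctccgGGGACTTTCCcaggggtggg
IL6 (chr7:22727117-22727146, plus strand, rose): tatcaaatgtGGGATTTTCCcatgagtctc
Each of these 3 calls was lost when some single libraries were left out, as given with their values. The same holds for NFKB1 and CXCL1 among the genes shown above that fell. TNIP2, MAP3K14, TRAF2 and ICAM1, the other genes that rose and had a promoter entry, held no match. Nor did RELA, CHUK, IKBKE, TRAF1, CXCL8, CSF2 and TNFAIP2, which fell.
The last windows are from genes that did not pass the test:
REL (chr2:60881518-60881546, plus strand, not past the threshold): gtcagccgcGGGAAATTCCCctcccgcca
MAP3K8 (chr10:30433982-30434011, plus strand, not past the threshold): ggggagacgcGGAATTTCCCagcgcggggg
TRAF3 (chr14:102777406-102777435, plus strand, not past the threshold): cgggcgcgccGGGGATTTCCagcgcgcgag
A match is a stretch of letters and no measurement of binding, and the promoter letters were set beside direction as a description only.

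**Figure D2:**
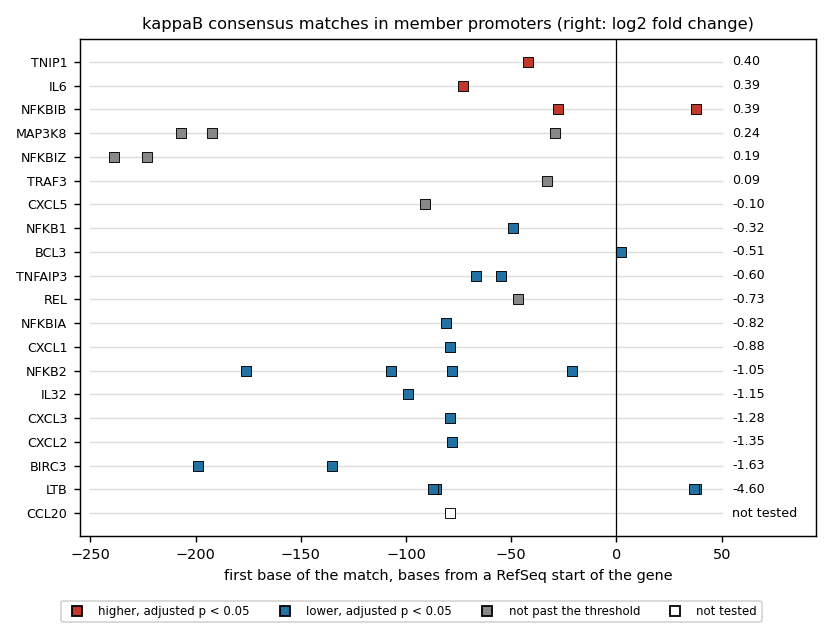
Position of each kappaB consensus match, in bases from a RefSeq start, for the 20 genes with a match, with the log2 fold change (siRCC2 over siCtrl) printed at the right. Colour gives whether the gene was higher, lower or not past the threshold in siRCC2, or not tested, and matches within 100 bases of a start occur among genes with each of these calls.

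The libraries held from 17377191 to 19895431 counts. RCC2 itself had 59.3, 57.6 and 54.8 CPM (counts relative to library size, scaled by TMM) in siRCC2 libraries and 198, 194 and 191 CPM in siCtrl libraries, which gave a log2 fold change of -1.76 ± 0.07 (± SE here and for every fold change; adjusted p = 2.00e-05 in edgeR, the test behind each adjusted p). The first principal component of all tested genes (62.3% of the variance) separated the groups, and the second (16.4%) set siRCC2 replicate 1 apart from siRCC2 replicates 2 and 3. Among the 41 genes, the median log2 ratio to the siCtrl mean was -0.72, -0.49 and -0.53 in siRCC2 replicates 1 to 3. Without siRCC2 replicate 1, 42 of the NF-kB genes passed the filter, among 16997 tested genes, and 25 were called lower and 5 higher. The 42 go beyond the 41 genes that passed with all libraries, so the counts are not over the same genes. All 6 epithelial markers passed the filter, whereas KLK2, of prostate luminal cells, was at 0 in each library. Of 10 leukocyte markers, CD3D, CD3E, MS4A1 and FCGR3A were among those at 0 in each library. The summed level of these 10 ranged from 1.94 to 3.35 CPM in siRCC2 and from 4.31 to 4.53 CPM in siCtrl, most of it CD14. The 7 endothelial and stromal markers summed to 9.55 to 12.4 CPM in siRCC2 and 12.8 to 15.4 CPM in siCtrl, and the 6 epithelial markers to 3062 to 3667 CPM in siRCC2 and 4764 to 4997 CPM in siCtrl. The fall of KRT7 alone, at 1636 ± 203 CPM in siRCC2 and 3588 ± 116 CPM in siCtrl, exceeded the fall of that last sum. EPCAM fell as well, KRT8, KRT18 and CDH1 rose, and KRT19 did not pass. The part of these marker levels in the results was not tested. In bulk RNA, fewer cells that express a gene and less of its RNA per cell cannot be told apart.

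The subunits of the alternative arm fell more than those of the classical arm in fitted size. NFKB2 (ENSG00000077150, chromosome 10, 102394110 to 102402529), the precursor of the RELB partner, had 86.9, 77.6 and 76.4 CPM in siRCC2 libraries and 167, 167 and 165 CPM in siCtrl libraries. Its siRCC2 values were all below the siCtrl values and close together within each group, and the log2 fold change was -1.05 ± 0.07 (adjusted p = 1.07e-04). RELB (ENSG00000104856, chromosome 19, 45001430 to 45038198), its dimer partner, had 19.4, 11.9 and 10.8 CPM in siRCC2 libraries and 37.8, 48.8 and 43.5 CPM in siCtrl libraries. The groups did not overlap, although siRCC2 replicate 1 stood above the other siRCC2 libraries, and the log2 fold change was -1.63 ± 0.23 (adjusted p = 0.00162). RELA, the main transactivating subunit of the classical arm, had 98, 87 and 86.2 CPM in siRCC2 libraries and 143, 123 and 126 CPM in siCtrl libraries (log2 fold change -0.53 ± 0.09, adjusted p = 0.00344). NFKB1, its usual partner, averaged 60.2 ± 3.88 CPM in siRCC2 and 75.4 ± 4.55 CPM in siCtrl (± SD here and for every level, n = 3 libraries each), with a log2 fold change of -0.32 ± 0.09 (adjusted p = 0.0202). This NFKB1 call was lost without siRCC2 replicate 2 (adjusted p = 0.115), siCtrl replicate 2 (0.0752) or siCtrl replicate 3 (0.0723). The difference between genes in the size of their fall was not tested.

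REL, a subunit best known from lymphocytes, had 6.53, 15.3 and 15.2 CPM in siRCC2 libraries and 20.6, 18.4 and 22.5 CPM in siCtrl libraries. The siRCC2 values all lay below the siCtrl values, with siRCC2 replicate 1 far below the others, and the test did not pass (log2 fold change -0.73 ± 0.30, adjusted p = 0.0929). Without siRCC2 replicate 1 the fold change was smaller, -0.44, and passed (adjusted p = 0.0233). Of the 50-base stretches of its longest transcript, 50.6% also occur in transcripts of other genes, so how its reads were shared out is uncertain. Per kilobase of transcript, the 5 subunits summed to 73.9 ± 6.27 CPM in siRCC2 and 129 ± 1.1 CPM in siCtrl. Of that sum, RELA made up 38.5 ± 0.535% in siRCC2 and 31.8 ± 2.58% in siCtrl, NFKB2 made up 31.9 ± 0.416% in siRCC2 and 37.8 ± 0.0427% in siCtrl, and RELB made up 8.16 ± 1.99% in siRCC2 and 14.7 ± 1.83% in siCtrl. RELA was thus the most abundant subunit transcript in siRCC2 and NFKB2 in siCtrl.

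**Figure D3:**
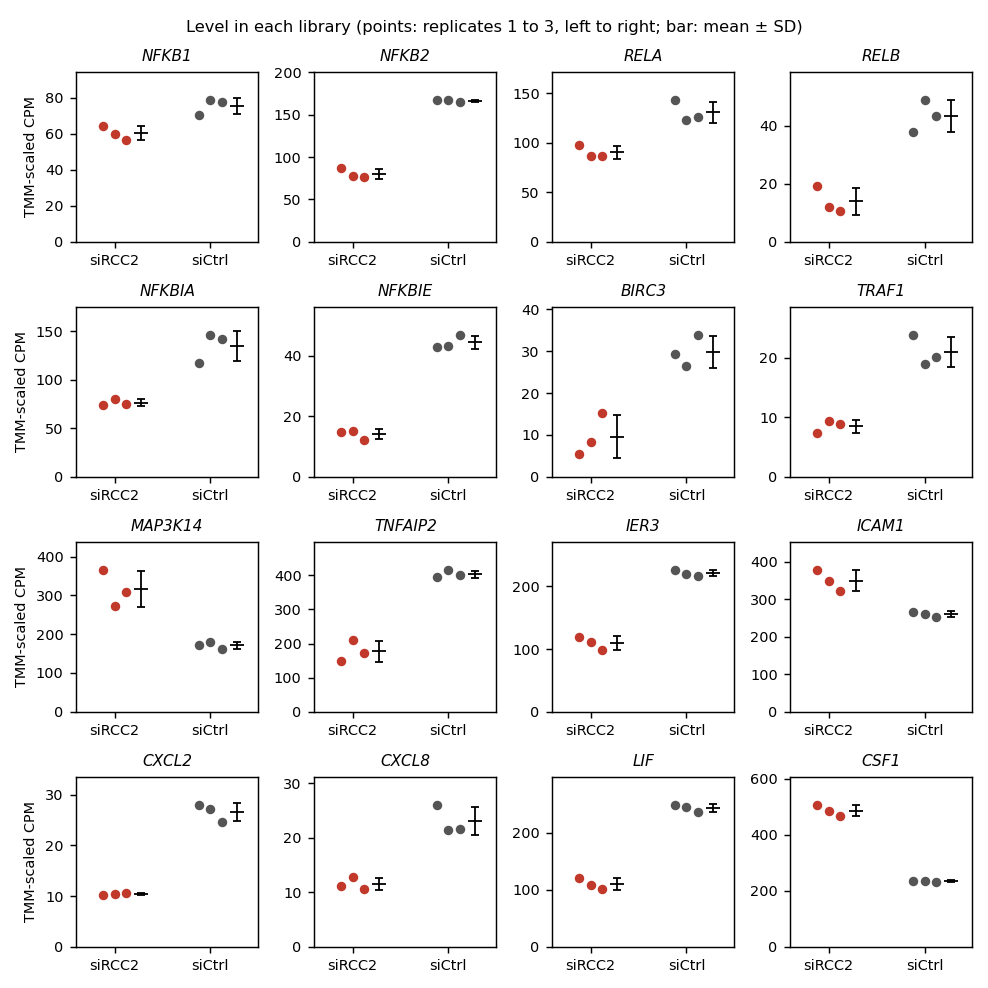
Level in TMM-scaled CPM of selected NF-kB genes, with siRCC2 left and siCtrl right in each panel, a point per library (replicates 1 to 3 from left to right) and the mean with its SD beside the points. Each vertical axis starts at 0 and has its own scale, and the siRCC2 and siCtrl points do not overlap in the panels shown.

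Among the IkB-type regulators, 3 of 5 fell, 1 rose and 1 did not pass. NFKBIE (ENSG00000146232, chromosome 6, 44258166 to 44265788), an IkB that retains RELA- and REL-containing dimers in the cytoplasm, had 14.8, 15.3 and 12.1 CPM in siRCC2 libraries and 43, 43.4 and 46.8 CPM in siCtrl libraries. The groups were far apart relative to their spread, with a log2 fold change of -1.66 ± 0.12 (adjusted p = 1.10e-04). NFKBIA (ENSG00000100906, chromosome 14, 35401511 to 35404749), the IkB that NF-kB induces as fast negative feedback, had 73.8, 80.7 and 75.1 CPM in siRCC2 libraries and 117, 146 and 142 CPM in siCtrl libraries. It was lower in each siRCC2 library, with a log2 fold change of -0.82 ± 0.10 (adjusted p = 8.90e-04). BCL3, a nuclear IkB protein that works with NFKB1 and NFKB2 homodimers, averaged 77.8 ± 5.03 CPM in siRCC2 and 111 ± 3.4 CPM in siCtrl (log2 fold change -0.51 ± 0.08, adjusted p = 0.00187).

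NFKBIB, an IkB that is not a fast feedback gene, went the other way, with 37.6, 34.6 and 31.2 CPM in siRCC2 libraries and 24.7, 25.7 and 28.6 CPM in siCtrl libraries. The groups did not overlap, though siRCC2 replicate 3 and siCtrl replicate 3 lay near each other, and the log2 fold change was 0.39 ± 0.11 (adjusted p = 0.0259). The call was lost without siRCC2 replicate 1 (adjusted p = 0.0511) or 2 (0.0866) and without siCtrl replicate 1 (0.0958) or 2 (0.0873). NFKBIB also overlaps SIRT2 on the opposite strand, which had 3287 counts over the 6 libraries against 3417 for NFKBIB. Strand use in the counting is not given in the sources used here, so part of either count may belong to the other gene. NFKBIZ, a nuclear IkB needed for IL6 induction, overlapped between the groups at 7.69 ± 1.08 CPM in siRCC2 and 6.75 ± 1.16 CPM in siCtrl (log2 fold change 0.19, 95% interval -0.16 to 0.54, adjusted p = 0.433).

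The genes around TNFAIP3 divided. TNFAIP3 itself, a ubiquitin-editing enzyme induced by NF-kB that shuts the pathway off, averaged 17.2 ± 1.8 CPM in siRCC2 and 26.2 ± 0.926 CPM in siCtrl and fell (log2 fold change -0.60 ± 0.11, adjusted p = 0.00467). Its ubiquitin-binding partners, which help it act on IKK, rose. TNIP2 had 74.4, 76.4 and 72 CPM in siRCC2 libraries and 53.6, 42.7 and 48.9 CPM in siCtrl libraries, with no overlap and a log2 fold change of 0.62 ± 0.10 (adjusted p = 0.00268). TNIP1, the most abundant of the 3 per kilobase, had 238, 211 and 188 CPM in siRCC2 libraries and 179, 170 and 133 CPM in siCtrl libraries. The lowest siRCC2 value lay just above the highest siCtrl value, and the log2 fold change of 0.40 ± 0.13 passed narrowly (adjusted p = 0.0482). The TNIP1 call was lost without any 1 of 5 libraries (adjusted p from 0.0533 to 0.12), and it held only when siRCC2 replicate 3 was the library left out.

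Of the 6 kinases, 3 fell, 1 rose and 2 did not pass. MAP3K14 (ENSG00000006062, chromosome 17, 45263121 to 45317040), the kinase that starts the alternative arm, had 365, 273 and 308 CPM in siRCC2 libraries and 173, 179 and 161 CPM in siCtrl libraries. The siRCC2 values were spread widely but all lay above the siCtrl values, and the log2 fold change was 0.88 ± 0.11 (adjusted p = 0.00102). The antisense gene MAP3K14-AS1 had 444 counts over the 6 libraries against 27121 for MAP3K14. MAP3K14 thus rose while NFKB2 and RELB, downstream of it, fell, and the ratio of MAP3K14 to NFKB2 per kilobase was 2.92 ± 0.269 in siRCC2 and 0.765 ± 0.034 in siCtrl. IKBKE, an IKK-related kinase of the antiviral response, averaged 10.2 ± 1.14 CPM in siRCC2 and 19.1 ± 0.251 CPM in siCtrl and fell (log2 fold change -0.90 ± 0.12, adjusted p = 0.00108).

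The catalytic IKK subunits fell by little. CHUK averaged 29.4 ± 5.94 CPM in siRCC2 and 40.2 ± 1.21 CPM in siCtrl (log2 fold change -0.45 ± 0.15, adjusted p = 0.0453). IKBKB averaged 42.3 ± 1.22 CPM in siRCC2 and 50 ± 0.383 CPM in siCtrl (log2 fold change -0.24 ± 0.07, adjusted p = 0.0348). Both calls were fragile: that of CHUK was lost without siRCC2 replicate 2 (adjusted p = 0.101) or siCtrl replicate 1 (0.115), 2 (0.113) or 3 (0.0918), and that of IKBKB without siRCC2 replicate 2 (0.184) or 3 (0.0538) or siCtrl replicate 1 (0.0951), 2 (0.102) or 3 (0.103). CHUK overlaps ERLIN1 on the same strand, which had 10666 counts over the 6 libraries against 3969 for CHUK. IKBKG, the scaffold of the complex, had 33.8 ± 0.853 CPM in siRCC2 and 29.7 ± 2.97 CPM in siCtrl and did not pass (log2 fold change 0.18, 95% interval -0.01 to 0.38, adjusted p = 0.186). Its value is uncertain, since 45.5% of its 50-base stretches also occur in the pseudogene IKBKGP1. MAP3K8 (TPL2), a kinase held by the NFKB1 precursor, was at 4.73 ± 0.759 CPM in siRCC2 and 3.99 ± 0.245 CPM in siCtrl and did not pass (adjusted p = 0.287).

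Among the 5 TRAF and cIAP genes, 2 fell, 1 rose and 2 did not pass. BIRC3 (ENSG00000023445, chromosome 11, 102317450 to 102339403), the inducible cIAP ubiquitin ligase, had 5.38, 8.24 and 15.2 CPM in siRCC2 libraries and 29.2, 26.4 and 33.8 CPM in siCtrl libraries. The siRCC2 libraries differed widely among themselves and all lay below siCtrl, with a log2 fold change of -1.63 ± 0.34 (adjusted p = 0.0085). TRAF1 (ENSG00000056558, chromosome 9, 120902393 to 120929173), an adaptor that joins TRAF2 and the cIAPs at TNF-family receptors, had 7.32, 9.33 and 8.81 CPM in siRCC2 libraries and 23.8, 19 and 20.1 CPM in siCtrl libraries. Its groups did not overlap, and its log2 fold change was -1.30 ± 0.14 (adjusted p = 5.88e-04). TRAF2, which holds MAP3K14 in the complex that destroys it, rose instead, with 119, 107 and 102 CPM in siRCC2 libraries and 82.1, 80.3 and 72.8 CPM in siCtrl libraries (log2 fold change 0.48 ± 0.09, adjusted p = 0.00451). TRAF2 overlaps RABL6 on the same strand, which had 17228 counts over the 6 libraries against 10554 for TRAF2.

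BIRC2 and TRAF3, of the same complex, did not pass the test. BIRC2, the neighbour of BIRC3 on chromosome 11, had 18, 23.6 and 21.5 CPM in siRCC2 libraries and 26.6, 51.1 and 22.4 CPM in siCtrl libraries. The groups overlapped and siCtrl replicate 2 stood far above the rest; the log2 fold change was -0.67 (95% interval -1.26 to -0.07, adjusted p = 0.121), and -0.22 without that library. TRAF3 also overlapped, with 48.3, 39.8 and 43.4 CPM in siRCC2 libraries and 32.5, 38.7 and 52.5 CPM in siCtrl libraries (log2 fold change 0.09, 95% interval -0.26 to 0.44, adjusted p = 0.717).

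Of 8 chemokine genes, 6 passed the filter, of which 5 fell and 1 did not pass the test. CXCL2 (ENSG00000081041, chromosome 4, 74097035 to 74099293), a neutrophil attractant with the highest mean per kilobase of the chemokines in both groups (in siRCC2 within the spread of CXCL16), had 10.2, 10.4 and 10.6 CPM in siRCC2 libraries and 27.9, 27.1 and 24.5 CPM in siCtrl libraries. The spread was small against the difference, with a log2 fold change of -1.35 ± 0.10 (adjusted p = 1.33e-04). CXCL3 (ENSG00000163734, chromosome 4, 74036589 to 74038807), its close paralog, had 1.63, 1.55 and 1.94 CPM in siRCC2 libraries and 4.32, 4.9 and 3.25 CPM in siCtrl libraries (log2 fold change -1.28 ± 0.22, adjusted p = 0.00342). CXCL1, the third GRO chemokine, had 1.27, 1.13 and 1.52 CPM in siRCC2 libraries and 2.28, 2.91 and 2.06 CPM in siCtrl libraries, from 21 to 54 counts per library, and fell (log2 fold change -0.88 ± 0.23, adjusted p = 0.0188). The CXCL1 call was lost without siRCC2 replicate 2 (adjusted p = 0.069) or siCtrl replicate 2 (0.0665). Between 3.0% and 9.2% of the 50-base stretches of these 3 genes occur in other genes, mostly in each other, and summed they had 13.4 ± 0.593 CPM in siRCC2 and 33.1 ± 2.82 CPM in siCtrl.

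CXCL8, the interleukin-8 gene, had 11.2, 12.8 and 10.6 CPM in siRCC2 libraries and 26, 21.4 and 21.7 CPM in siCtrl libraries. All siRCC2 values lay below those of siCtrl, with a fitted siRCC2 to siCtrl ratio of 0.5 (95% interval of the log2 fold change -1.25 to -0.75, adjusted p = 0.00106). CXCL16, a membrane-bound chemokine that attracts T cells, averaged 16.4 ± 3.7 CPM in siRCC2 and 31.1 ± 0.634 CPM in siCtrl (log2 fold change -0.92 ± 0.17, adjusted p = 0.00483). CXCL5, which lies between CXCL1 and CXCL3 in the chromosome 4 cluster, had 1.87, 2.89 and 2.88 CPM in siRCC2 libraries and 3.18, 2.59 and 2.47 CPM in siCtrl libraries. Its groups overlapped, and its log2 fold change was -0.10 (95% interval -0.55 to 0.34, adjusted p = 0.743). Its neighbour CXCL6, from the list of other NF-kB targets, had 0.863 ± 0.192 CPM in siRCC2 and 0.737 ± 0.141 CPM in siCtrl and did not pass (adjusted p = 0.56). Per kilobase, the chemokines summed to 26 ± 2.34 CPM in siRCC2 and 56 ± 3.23 CPM in siCtrl.

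CCL20 and CCL2 did not pass the filter on low counts. CCL20, which attracts CCR6-bearing cells, had 0, 2 and 0 counts in siRCC2 libraries and 10, 14 and 12 counts in siCtrl libraries. Per scaled library size, its summed counts in siRCC2 were 0.0587 times those in siCtrl (exact 95% interval 0.00685 to 0.228, counting error only). CCL2, the monocyte attractant, had 0 counts in each siRCC2 library and 5, 0 and 2 counts in siCtrl libraries, too few to compare.

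The cytokine genes moved both ways: of 11, 8 passed the filter, 4 fell, 2 rose and 2 did not pass the test. LIF (ENSG00000128342, chromosome 22, 30240447 to 30246851), an IL6-family cytokine that signals through LIFR and IL6ST, had 121, 108 and 101 CPM in siRCC2 libraries and 248, 245 and 236 CPM in siCtrl libraries. The groups lay far apart, with a log2 fold change of -1.14 ± 0.08 (adjusted p = 1.23e-04). CSF1 (ENSG00000184371, chromosome 1, 109910242 to 109930992), the growth factor of macrophages, had 505, 484 and 467 CPM in siRCC2 libraries and 236, 236 and 231 CPM in siCtrl libraries. Among the 41 genes, it alone rose by at least 2-fold, with a log2 fold change of 1.05 ± 0.06 (adjusted p = 5.73e-05). Per kilobase, CSF1 and LIF were far apart in siRCC2 and close in siCtrl: their ratio was 4.18 ± 0.224 in siRCC2 and 0.908 ± 0.013 in siCtrl. CSF1 made up 63.5 ± 0.712% of the cytokine transcripts per kilobase in siRCC2 and 35 ± 0.165% in siCtrl, and LIF made up 15.2 ± 0.668% in siRCC2 and 38.5 ± 0.388% in siCtrl. The sum over cytokines was 182 ± 9.13 CPM per kilobase in siRCC2 and 159 ± 2.6 CPM per kilobase in siCtrl.

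**Figure D4:**
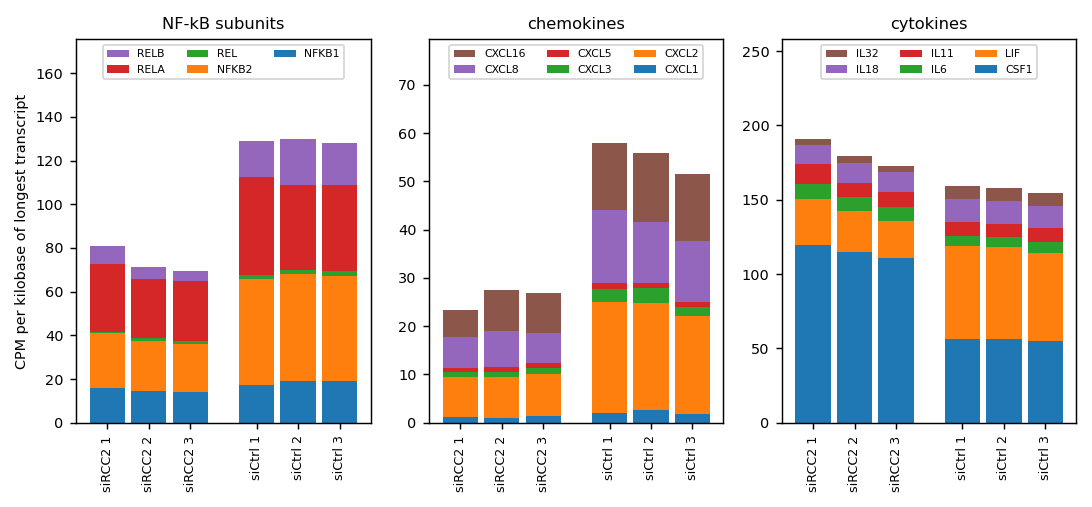
Stacked levels per kilobase of transcript (CPM per kilobase) of the subunits and of the tested chemokines and cytokines in each library, without LTB and CSF2, which are too low to draw, siRCC2 left and siCtrl right. The subunit and chemokine stacks are shorter in siRCC2, and CSF1 takes up 62.7% to 63.9% of the cytokine sum in siRCC2 and 34.8% to 35.1% in siCtrl.

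IL6, the cytokine most often read as an NF-kB product, had 16.2, 14.4 and 13.6 CPM in siRCC2 libraries and 11.1, 11 and 11.7 CPM in siCtrl libraries. The siRCC2 values all lay above the siCtrl values, with a log2 fold change of 0.39 ± 0.11 (adjusted p = 0.0297). This call was lost without siRCC2 replicate 1 (adjusted p = 0.0569) or 2 (0.0832) or siCtrl replicate 1 (0.0951), 2 (0.0939) or 3 (0.0707). IL6-AS1, on the opposite strand, had 304 counts over the 6 libraries against 1461 for IL6. IL11, of the same cytokine family, had 29.7, 22.7 and 24.1 CPM in siRCC2 libraries and 21, 20 and 21.5 CPM in siCtrl libraries and did not pass (log2 fold change 0.29, 95% interval 0.05 to 0.54, adjusted p = 0.102).

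IL32 (ENSG00000008517, chromosome 16, 3065297 to 3082192), an intracellular and secreted pro-inflammatory protein, had 5.32, 6.18 and 5.24 CPM in siRCC2 libraries and 12.9, 12.4 and 12 CPM in siCtrl libraries. It was lower in each siRCC2 library, with a log2 fold change of -1.15 ± 0.12 (adjusted p = 5.06e-04). IL18, a cytokine released after inflammasome cleavage, averaged 22.7 ± 0.407 CPM in siRCC2 and 25.5 ± 0.468 CPM in siCtrl and did not pass (log2 fold change -0.17, 95% interval -0.33 to -0.00, adjusted p = 0.157).

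The TNF-family ligand LTB, which engages LTBR and the alternative arm, had 2, 0 and 0 counts in siRCC2 libraries and 17, 28 and 15 counts in siCtrl libraries. It was nearly absent from siRCC2 libraries, and per scaled library size its summed counts in siRCC2 were 0.0352 times those in siCtrl (exact 95% interval 0.00417 to 0.133, counting error only). The edgeR test passed (adjusted p = 0.00372), while the fitted log2 fold change of -4.60 ± 0.80 depends on the prior count and was -7.34 without siRCC2 replicate 1, which leaves siRCC2 with 0 counts. CSF2, the granulocyte and macrophage colony-stimulating factor, had 1, 7 and 3 counts in siRCC2 libraries and 15, 13 and 11 counts in siCtrl libraries, and its log2 fold change was -1.72 ± 0.51 (adjusted p = 0.0313). Its call was lost without siRCC2 replicate 1 (adjusted p = 0.0576) or 3 (0.0863) and without siCtrl replicate 1 (0.0954), 2 (0.0864) or 3 (0.0648). LTB and CSF2 reached the filter through their siCtrl counts, so their direction is no independent support for the count of genes that fell. TNF had at most 2 counts in a library and IL1A and IL1B had 0 counts in all 6, so the main inducers of the classical arm were at or near 0 in both groups.

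The remaining target genes also differed in direction. ICAM1 (ENSG00000090339, chromosome 19, 10270835 to 10286615), an adhesion receptor for leukocytes, had 378, 349 and 322 CPM in siRCC2 libraries and 267, 262 and 253 CPM in siCtrl libraries and rose (log2 fold change 0.42 ± 0.08, adjusted p = 0.0041). IER3 (ENSG00000137331, chromosome 6, 30743199 to 30744554), an early-response gene tied to cell survival, had 120, 112 and 97.9 CPM in siRCC2 libraries and 226, 220 and 217 CPM in siCtrl libraries. TNFAIP2 (ENSG00000185215, chromosome 14, 103123442 to 103137439), a TNF-induced gene linked to membrane protrusions, had 150, 210 and 172 CPM in siRCC2 libraries and 395, 415 and 400 CPM in siCtrl libraries. Neither gene overlapped between groups. The fitted siRCC2 to siCtrl ratio of IER3 was 0.499 (95% interval of the log2 fold change -1.17 to -0.83, adjusted p = 2.34e-04), and the log2 fold change of TNFAIP2 was -1.19 ± 0.12 (adjusted p = 4.16e-04).

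Across the whole set, 36 of 41 genes had no overlap between the 3 siRCC2 and the 3 siCtrl libraries, 26 with all siRCC2 values lower and 10 with all higher; 55.4% of all tested genes had no overlap. A fall of at least 2-fold with an adjusted p under 0.05 was found for 13 of the 41 genes and for 7.19% of all tested genes. The 13 include LTB and CSF2, which reached the filter through their siCtrl counts, so their fall adds no independent support. The order of levels per kilobase changed at the top. In siRCC2 the highest were CSF1 at 115 ± 4.58, ICAM1 at 108 ± 8.68, IER3 at 81.6 ± 8.41, TNIP1 at 72.3 ± 8.54 and MAP3K14 at 68.8 ± 10.2 CPM per kilobase. The mean ± SD ranges of CSF1 and ICAM1 overlapped, as did those of IER3, TNIP1 and MAP3K14. The order of these genes within single libraries was not compared. In siCtrl the highest were IER3 at 164 ± 3.33, NFKBIA at 86.6 ± 10, TNFAIP2 at 86.2 ± 2.28, ICAM1 at 80.1 ± 2.21 and LIF at 61.3 ± 1.6 CPM per kilobase. There NFKBIA, TNFAIP2 and ICAM1 were within the spread of NFKBIA, and CSF1 was sixth.

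**Figure D5:**
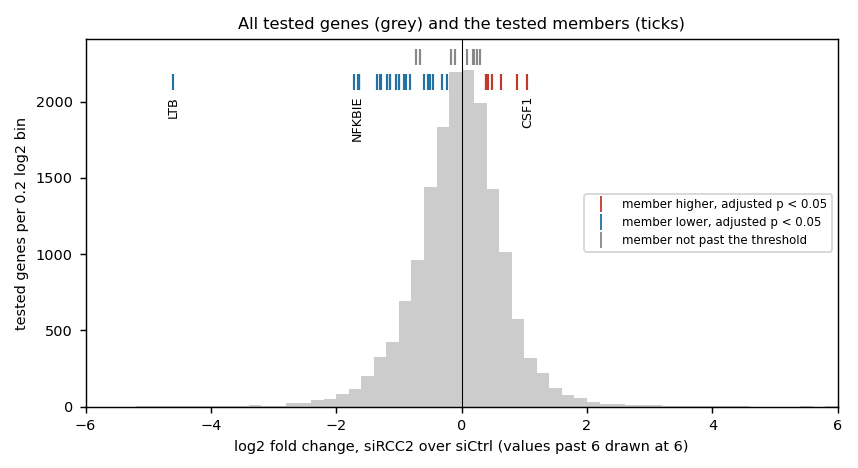
Histogram of the log2 fold change (siRCC2 over siCtrl) of all 16536 tested genes in grey, as genes per bin, with the 41 tested NF-kB genes as ticks above it, coloured by call. The ticks lie mostly left of 0, with a median of -0.60 against -0.02 for all genes, and LTB is the farthest left and CSF1 the farthest right.

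Many of these transcripts are short-lived, and the nonamer TTATTTATT, a letter pattern of unstable mRNAs, was counted in the 3′ UTRs of the annotation. It was present in 12 of 46 genes (26.087%), against 9.326% of 13167 tested genes with a 3′ UTR long enough to search. The 12 were REL, TNFAIP3, BIRC3, CXCL1, CXCL2, CXCL3, CXCL8, IL1B, IL11, LIF, CSF2 and TNF. They comprised 8 of the 24 genes that fell and 0 of the 8 that rose, a description without a test. The shares among all genes called lower or higher were not counted. IL1B and TNF did not pass the filter, whereas the 9.326% covers tested genes only.

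Of 41 genes for receptors and adaptors upstream of NF-kB, 39 were tested, 10 fell, 6 rose and 23 did not pass, with a median log2 fold change of -0.14. The shares, 25.6% lower and 15.4% higher, were near the 21.1% and 20.7% of all tested genes. Those that fell included CYLD, a deubiquitinase that restrains NF-kB, at 7 ± 0.742 CPM in siRCC2 and 22.8 ± 1.56 CPM in siCtrl (log2 fold change -1.70 ± 0.12). TNFRSF1B, the second TNF receptor, was at 4.37 ± 0.718 CPM in siRCC2 and 15 ± 0.961 CPM in siCtrl (-1.78 ± 0.15), and the kinase IRAK2 at 11.8 ± 0.421 CPM in siRCC2 and 28.5 ± 2 CPM in siCtrl (-1.28 ± 0.10). Those that rose included the IL-1 receptor IL1R1 (log2 fold change 0.99 ± 0.13), the kinase IRAK1 (0.71 ± 0.09) and LTBR, the receptor for the nearly absent LTB (0.51 ± 0.08). The adjusted p of these 6 genes lay between 1.25e-04 and 0.00236.

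Of 36 other genes known as NF-kB targets, 21 were tested, 5 fell, 6 rose and 10 did not pass, with a median log2 fold change of 0.09. Here too the shares, 23.8% lower and 28.6% higher, were near those of all tested genes. PLAU, the urokinase protease, fell to 420 ± 28.2 CPM in siRCC2, against 1131 ± 13.3 CPM in siCtrl (log2 fold change -1.43 ± 0.07, adjusted p = 3.43e-05). IL24, a cytokine, and GCH1, which makes a pterin cofactor, fell as well (log2 fold changes -2.67 ± 0.33 and -0.89 ± 0.14). IL24, with 8, 8 and 17 counts in siRCC2 libraries and 73, 57 and 94 counts in siCtrl libraries, reached the filter through siCtrl. SDC4, a heparan sulfate proteoglycan, rose to 449 ± 42.6 CPM in siRCC2, against 192 ± 1.76 CPM in siCtrl (1.22 ± 0.08, adjusted p = 9.00e-05). Complement C3 and the ephrin EFNA1 rose as well (1.43 ± 0.10 and 0.86 ± 0.12).

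Receptors for the cytokines and chemokines above were mostly below the filter. Of 15, 6 passed it, and CXCR1, CXCR6, CCR2, CCR6 and CSF2RB were at 0 in each library. CSF1R, the receptor of CSF1, had 0, 0 and 3 counts in siRCC2 libraries and 0 in each siCtrl library. IL6R, the receptor chain that binds IL6, had 152, 147 and 160 CPM in siRCC2 libraries and 33, 26.9 and 30.8 CPM in siCtrl libraries. It rose with no overlap, with a log2 fold change of 2.34 ± 0.10 (adjusted p = 2.50e-05). CSF2RA, the binding chain of the CSF2 receptor, fell (log2 fold change -0.52 ± 0.13, adjusted p = 0.0162). The signalling chain IL6ST had 56.8, 142 and 201 CPM in siRCC2 libraries and 140, 141 and 147 CPM in siCtrl libraries, so its siRCC2 libraries lay on both sides of siCtrl (adjusted p = 0.857).

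The calls differed in how much they leaned on single libraries. Under 14 other scalings, tools, filters, designs and left-out libraries, 23 of the 32 called genes kept their call and direction in each. LTB kept them wherever it was tested, but it fell below the filter of at least 1 CPM in 3 libraries. The 8 that lost it at least once were NFKB1, NFKBIB, TNIP1, CHUK, IKBKB, CXCL1, IL6 and CSF2. The count of genes that rose was 5 in place of 8 without siRCC2 replicate 1, siRCC2 replicate 2, siCtrl replicate 1 or siCtrl replicate 2. The rises of TNIP2, MAP3K14, TRAF2, CSF1 and ICAM1 held under each of the 14.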

How the data were processed

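RNA was measured in 3 siRCC2 and 3 siCtrl libraries of DU145 cells, grouped by their titles. The authors deposited whole-number counts per gene for each library; the tools were Bowtie2, RSEM and DESeq2 on GRCh38, per the submitters' processing notes, so RSEM estimates may have been rounded. No source used here gives the read sharing, strand setting or versions.

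The test was edgeR 4.0.16 under R 4.3.3 (filterByExpr, TMM, quasi-likelihood F-test), with Benjamini-Hochberg adjustment over 16536 genes at 0.05. Standard errors were derived from F, and 95% intervals are normal. Such intervals can be narrower than the F-test implies. Those of BIRC2, IL11 and, narrowly, IL18 exclude no change, though their unadjusted p in the F-test was 0.0644, 0.0518 and 0.0888. Levels between genes were divided by the longest GENCODE release 29 transcript. Alternatives used DESeq2 1.42.0, limma 3.58.1, other scalings and filters, a replicate block, left-out libraries and a threshold of 0.01. Within groups, libraries differed by more than counting error (chi-square divided by its degrees of freedom, 10.2 to 34.3).

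The genes and lists were chosen with earlier results of these data known. By rule, per-library values are given for genes past the threshold with at least 2-fold change, for each gene called higher and for the most abundant of each role, and from other lists up to 3 genes per direction by p; further values were added after they were seen. Some marker and neighbouring genes are not reported here. Figures used Python 3.11.15 and matplotlib 3.10.9.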

Additional observations from a re-analysis of the deposited data

How the results depend on the processing

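The count of genes lower in siRCC2 was 24, and 19 to 25 without 1 library, where 41 or 42 of the NF-kB genes passed the filter. It was 22 to 24 under the other scalings, tools and filters. The count of genes higher was 8, and 5 to 8 without 1 library, 5 without a filter beyond 1 read, and 5 at an adjusted p under 0.01, where 4117 genes of the whole table were called. The median log2 fold change lay between -0.70 and -0.52 under each alternative. The fold change of TRAF3 turned sign without 1 library (range -0.06 to 0.30), as did that of CXCL5 (range -0.19 to 0.06); neither passed the test, and the cause was not tested. REL passed with DESeq2 (adjusted p = 0.0338). TNIP1 did not pass with upper quartile (0.0649) or total count scaling (0.0677), nor IKBKB with DESeq2 (0.095). Without the filter, CCL20 was lower (adjusted p = 0.0077), and CCL2 (0.169) and TNF (0.798) did not pass.

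Whether same-numbered libraries were made together is not stated in the labels. Deviations of same-numbered libraries from their group mean correlated at 0.059, -0.042 and 0.099, and those of differently numbered libraries at -0.119 to 0.062. With 3 libraries per group, these values cannot decide whether the libraries are paired. With the replicate number as a block, 6295 genes were called, with 19 of these NF-kB genes lower and 6 higher. Depth limits the genes with few counts, chiefly CCL2, CCL20, CSF2, LTB and TNF. Interval bounds from counts cover counting error only. Shared or overlapping sequence limits REL, IKBKG, NFKBIB, CHUK and TRAF2.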
